A study of Mus musculus with 24 samples.

Results

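The promoters examined here carried a called H3K9ac peak in some of the libraries and not in others. On chromosomes 1 to 19 and X, overlapping peaks (1 bp or more) of the 12 lists gave 38586 merged regions, of which 14250 came within 1 kb of the annotated start of transcription (TSS) of some protein-coding gene (GENCODE vM21). Of these promoter regions, 1174 (8.24%) were called in 3 to 9 of the 12 libraries and are referred to as variable promoters. A further 9973 promoter regions were called in all 12 libraries, 481 in 10 or 11, and 2622 in 1 or 2. The calls themselves chose the variable promoters, so calls and fold enrichments are given as descriptions without a test.

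Acetylation of lysine 9 on histone H3 is placed by acetyltransferases such as KAT2A and PCAF and is found on the nucleosomes that flank the start sites of active genes. Many mammalian promoters lie in CpG islands, stretches rich in G, C and CG dinucleotides that stay free of DNA methylation and are often acetylated in many cell types, whereas promoters poor in CpG tend to be used in a narrower range of cells. A peak caller turns this graded signal into a yes or no in each library, so a promoter of low enrichment can be called in one library and missed in another.

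4T1, a line derived from a mammary tumour of a BALB/c mouse, was grown as spheroids, which were collected on day 5 and profiled by ChIPmentation, in which chromatin bound to the antibody is tagged by the Tn5 transposase. The 4 groups had 3 libraries each: scramble control cells, CPT1a KO cells and KAT2a KO cells, all in medium with 75 µM palmitate, and CPT1a KO cells in medium with 5 mM acetate, for which the label does not say whether palmitate was present. The legend of the study's H3K9ac plot for CPT1a loss with and without acetate places both in palmitate. According to the methods, all lines carried a doxycycline-inducible Cas9 and a lentiviral guide selected with puromycin, and the guide of the control cells was directed against EGFP. The labels do not say which of the guides to a gene a library carried, nor whether a line was a clone. The study used these data to ask whether loss of CPT1a, the enzyme that commits long-chain fatty acids to mitochondrial import, or of KAT2a, a histone acetyltransferase, alters H3K9 acetylation, and nothing in the labels says whether the 3 libraries of a group came from separate cultures, so p-values measure the spread between these libraries only.

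The sequences below are examples from variable promoters, and their windows were not all placed alike. The first 3 are the 200 bases upstream of a start site within the variable region, and the last is 200 bases centred on the summit of the strongest peak. All are GRCm38 sequence, written 5′ to 3′ on the strand of the gene, with every CG dinucleotide in capitals, and none overlaps an annotated exon. Inhbb (chr1:119422249-119422448, minus strand) was called in all 9 libraries outside scramble and in no scramble library. Arrdc4 (chr7:68749242-68749441, minus strand) and Rasef (chr4:73790995-73791194, minus strand, of which 66 bases lie in the variable region) were called in scramble and KAT2a KO libraries and in no CPT1a KO library. Synpo2l (chr14:20663918-20664117, minus strand, within the gene) had a call in every scramble library and nowhere else.
Inhbb: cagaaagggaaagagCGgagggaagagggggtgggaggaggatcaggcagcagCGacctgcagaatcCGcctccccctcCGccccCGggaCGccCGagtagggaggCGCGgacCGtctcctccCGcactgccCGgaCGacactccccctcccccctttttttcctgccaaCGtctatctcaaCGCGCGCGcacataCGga
Arrdc4: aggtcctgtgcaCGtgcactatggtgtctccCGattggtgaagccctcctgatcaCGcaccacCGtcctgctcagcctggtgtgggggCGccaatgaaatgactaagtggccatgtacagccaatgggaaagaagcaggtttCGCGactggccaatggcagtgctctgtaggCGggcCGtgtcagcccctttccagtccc
Rasef: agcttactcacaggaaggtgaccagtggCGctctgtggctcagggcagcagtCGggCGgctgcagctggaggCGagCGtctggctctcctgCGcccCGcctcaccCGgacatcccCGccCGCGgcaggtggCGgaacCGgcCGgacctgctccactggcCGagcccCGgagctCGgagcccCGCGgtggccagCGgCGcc
Synpo2l: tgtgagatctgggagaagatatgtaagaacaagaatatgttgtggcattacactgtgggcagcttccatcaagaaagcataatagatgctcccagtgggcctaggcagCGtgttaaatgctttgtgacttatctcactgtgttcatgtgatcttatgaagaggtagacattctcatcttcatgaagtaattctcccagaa

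The Rasef window held 21 CG dinucleotides at a GC content of 74.5%, the Inhbb window 19 at 67% and the Arrdc4 window 9 at 59.5%. Only 66 of the 200 bases of the Rasef window lie in its variable region, which had a GC content of 52.9%. The Synpo2l window, called only in scramble, had 1 CG at 41.5% GC. Its middle lay 556 bp from the nearest start site of the gene, so it differs from the other windows in place as well.

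Variable promoters sat at the weak end of the H3K9ac peaks. Their peaks had a median fold enrichment, the ratio of summit signal to local background within a library, that rose from 4.66 at promoters called in 3 libraries to 5.51 at those called in 9. Just outside the limits, the median was 4.44 for the 659 promoters called in 2 libraries and 5.87 for the 180 called in 10, while it was 17.7 for promoters called in all 12. Region width was also larger at higher counts apart from a small dip at 8 libraries, with medians of 581 bp at 3 libraries, 1063 bp at 9 and 3370 bp at 12. Thus no gap in strength separated the variable promoters from their neighbours on either side, and the step lay between 11 and 12 libraries.

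**Figure D1:**
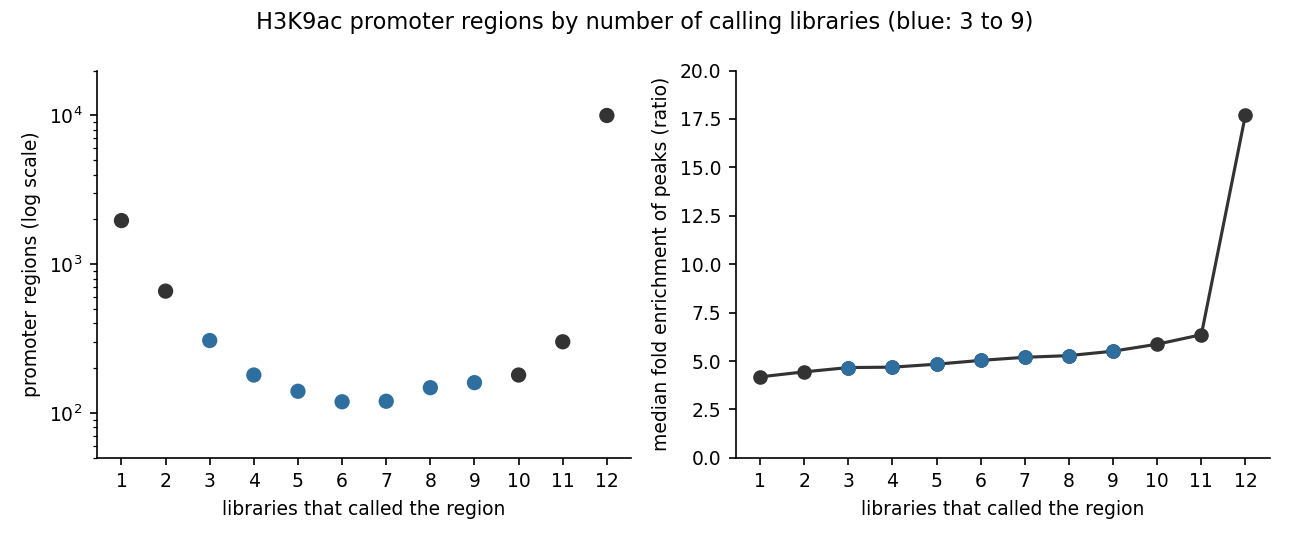
Number of promoter regions (left, log scale) and median fold enrichment of their peaks (right, ratio) against the number of the 12 libraries that called the region, with variable promoters in blue. The counts reach their lowest point at 119 regions for 6 libraries, and the fold enrichment climbs slowly up to 11 libraries (6.36) and then steps to 17.7 at 12.

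The variable promoters fell into 3 kinds by their surroundings. The largest, 636 regions (54.2%), lay beside another region called in 10 or more libraries that also touched the start sites of the gene, so the gene itself had a steady H3K9ac promoter. A further 373 (31.8%) were the only region within 1 kb of the start sites of their gene, and are called sole promoters here. The remaining 165 (14.1%) shared their gene with regions that were themselves called in fewer than 10 libraries. Over all protein-coding genes, 11117 of 21728 had a promoter region called in 10 or more libraries, 529 (2.43%) had a variable promoter as their best region, 282 had a region called in 1 or 2 libraries and 9800 had none.

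Most sole promoters covered a start site, and most regions beside a steady promoter did not. Of the sole promoters 272 (72.9%) covered an annotated TSS, against 182 (28.6%) of those beside a steady promoter and 97.9% of the promoters called in all 12 libraries. Median GC content was 57.6% in sole promoters, 48.3% in those beside a steady promoter and 50.04% in the promoters of all 12 libraries, whose median region was wider than either. The ratio of observed to expected CG dinucleotides was 0.583, 0.267 and 0.510 in the same order. The gap to the steady neighbour had a median of 373.5 bp and was under 500 bp for 333 of the 636 regions (52.4%). Its upper quartile was 10515 bp, so many of these regions were not flanks of the neighbour. Of the 636, 294 lay upstream of the nearest start site, 160 downstream and 182 across one.

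Depth differed between libraries and bears on all counts of calls. The calling depth, which is the mean coverage of the genome by fragments at which a list was called, was recovered from the deposited values and ranged from 0.554 in CPT1a KO replicate 3 to 2.52 in scramble replicate 1. It was 1.87 and 1.90 in the other scramble libraries, 1.02 to 1.81 in KAT2a KO, 1.56 and 1.703 in the other CPT1a KO libraries, and 0.660 in replicate 2 of CPT1a KO with acetate against 1.45 and 1.91 in replicates 1 and 3. The ChIP signal of CPT1a KO replicate 3 was scaled by 0.378 before calling, from a coverage of 1.46. The lists held 16212 to 34370 peaks, and no 2 of them were identical.

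Scramble libraries called 702, 446 and 424 of the 1174 variable promoters, CPT1a KO libraries 601, 743 and 60, CPT1a KO libraries with acetate 489, 232 and 634, and KAT2a KO libraries 780, 848 and 560 (replicates 1 to 3). The lowest count, 60, belonged to the shallowest library, CPT1a KO replicate 3, and KAT2a KO replicate 3 called 560 at a depth of 1.02. Counts of sole promoters were ordered differently: 164, 102 and 81 in scramble, 251, 287 and 38 in CPT1a KO, 168, 94 and 232 with acetate, and 304, 327 and 265 in KAT2a KO. The 3 KAT2a KO libraries therefore called more sole promoters than any scramble library, although scramble had the greatest depths but for CPT1a KO with acetate replicate 3. Over all 14250 promoter regions there was no such order. Scramble libraries called 12373, 11104 and 11361 of them, and KAT2a KO libraries 11431, 11568 and 11070.

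When the peaks of each list were thinned to a common depth of 0.55, scramble libraries kept a call at 37, 30 and 36 variable promoters, CPT1a KO libraries at 161, 260 and 60, those with acetate at 87, 168 and 68, and KAT2a KO libraries at 210, 302 and 324. All 9 libraries outside scramble were then above the 3 scramble libraries. At promoters called in all 12 libraries, which are not variable, the median fold enrichment was also lower in scramble. It was 10.7 to 13.9 in the scramble libraries and 15.4 to 26.6 in the other 9. The part of this library-wide difference in the thinned counts was not tested. At this depth 513 of the variable promoters (43.7%) had no call in any library, among them 377 of the 636 beside a steady promoter (59.3%) and 75 of the 373 sole promoters (20.1%).

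**Figure D2:**
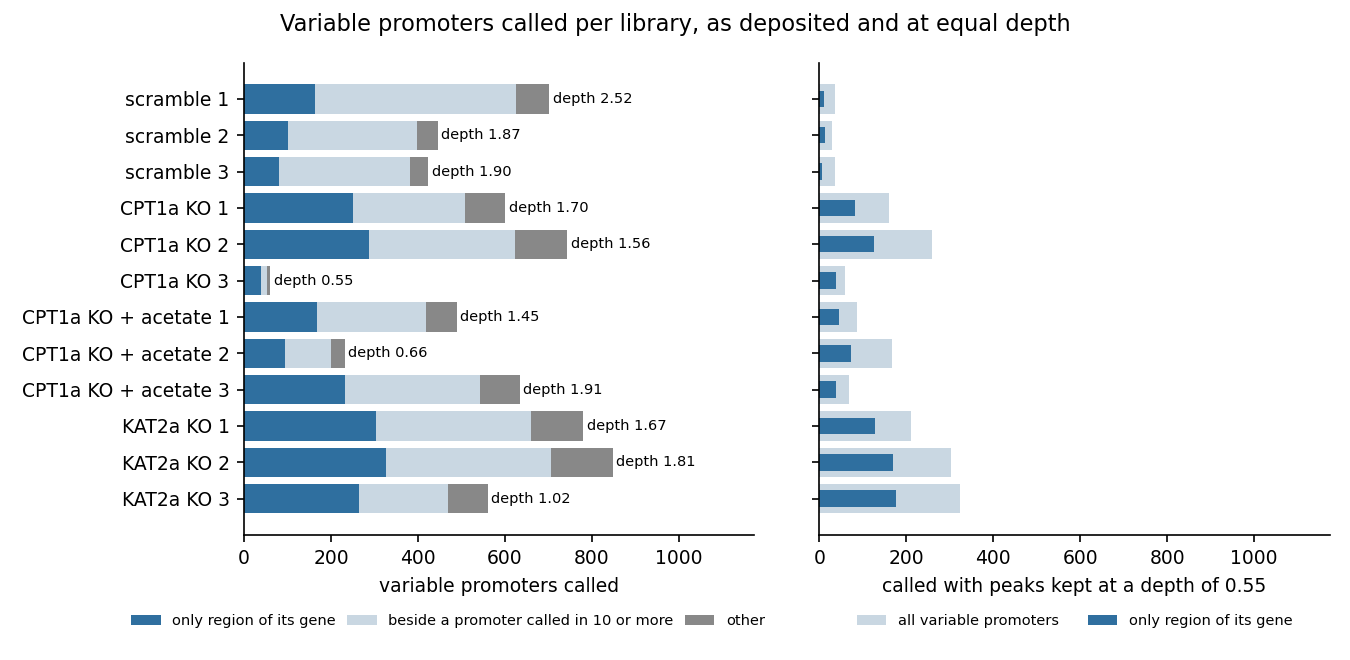
Variable promoters called in each of the 12 libraries (bars, number of regions), with the deposited peaks on the left, stacked by kind and marked with the calling depth, and with peaks thinned to a depth of 0.55 on the right, where the narrow bars are sole promoters. Scramble libraries call 424 to 702 as deposited and 30 to 37 at equal depth, while KAT2a KO libraries call 560 to 848 and 210 to 324.

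Calls in every replicate of a group were most frequent in KAT2a KO. Of the 373 sole promoters, 241 (64.6%) were called in 3 of 3 KAT2a KO libraries, 51 (13.7%) in 3 of 3 scramble libraries, 62 in 3 of 3 libraries with acetate and 35 in 3 of 3 CPT1a KO libraries, a count that the shallow replicate 3 limits. No scramble library called 184 of the sole promoters (49.3%), and no KAT2a KO library called 27. Among the 636 regions beside a steady promoter scramble came first, with 205 called in 3 of 3 scramble libraries, 143 in KAT2a KO, 54 with acetate and 13 in CPT1a KO.

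The base composition of the variable promoters that a library called differed between scramble and the other groups. The rule used neither base composition nor group, but a library's median rests on the same calls that chose the promoters. The difference therefore describes the chosen regions and not promoters at large. Median GC content was 47.7%, 46.8% and 45.1% in the 3 scramble libraries. It was 55.0%, 54.4% and 63.3% in CPT1a KO, 53.6%, 54.7% and 53.9% with acetate, and 54.8%, 54.6% and 56.5% in KAT2a KO, so all 9 other libraries lay above scramble. The means were 46.5% ± 1.32 (SD, n = 3) in scramble and 55.7% ± 2.98 (SD, n = 9) outside it, a difference of -9.12 percentage points (two-sided exact permutation test over 220 assignments, p = 0.00455, the smallest possible; 0.0227 after Benjamini-Hochberg adjustment over 5 comparisons). Without the shallow CPT1a KO replicate 3 the difference was -8.30 points (exact permutation p = 0.00606), and at equal depth, with promoters chosen anew, it was -9.60 points (exact permutation p = 0.00455).

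The adjusted p missed 0.05 in other settings. It was 0.1 when a library had to cover 50% of a region (difference -4.26 points, exact permutation p = 0.0773), 0.0781 with the replicate number as a block, and 0.0909 to 0.1 without 1 of the scramble libraries, where it cannot be under 0.0909. The difference without scramble replicate 3 was -5.40 points (exact permutation p = 0.0364). Sole promoters alone had a median GC content of 50.2% to 53.0% in the scramble libraries and 55.96% to 64.4% in the other 9, and the regions beside a steady promoter had 44.0% to 45.9% and 50.6% to 60.5%. Scramble thus lay below the other libraries in both kinds. In regions away from promoters that were called in 3 to 9 libraries, GC content was also lower in scramble, at 44.8% ± 0.936 (SD, n = 3) against 49.6% ± 2.11 (SD, n = 9), a difference of -4.79 points (exact permutation p = 0.00455). The excess of variable promoters over those regions within a library was 1.75 ± 0.419 points in scramble and 6.08 ± 1.34 points outside it (exact permutation p = 0.00455, a comparison chosen after seeing the data). Promoters called in 1 or 2 libraries had 41.6%, 44.8% and 40.2% in scramble and 52.1% to 55.6% outside it, where CPT1a KO replicate 3 called none. The lower GC content of scramble is thus not particular to variable promoters.

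Between single groups, 3 libraries against 3 cannot give a p below 0.1. GC content was higher than in scramble by 11.04 points in CPT1a KO (57.6% ± 4.98, SD, n = 3), by 8.76 points in KAT2a KO (55.3% ± 1.06) and by 7.56 points with acetate (54.1% ± 0.583), each with an exact permutation p of 0.1 and an adjusted p of 0.125. Acetate and CPT1a KO differed by -3.48 points (exact permutation p = 0.2, adjusted p = 0.2), and by -0.373 points without CPT1a KO replicate 3. Groups were not balanced for depth, and no label gives a preparation batch, so batch and group cannot be told apart.

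Peak width relative to steady promoters did not pass the test. The median width of peaks at variable promoters, divided by that of peaks at promoters called in all 12 libraries, was 0.202, 0.241 and 0.290 in scramble, 0.194, 0.214 and 0.218 in CPT1a KO, 0.186, 0.220 and 0.199 with acetate, and 0.200, 0.204 and 0.238 in KAT2a KO. Scramble overlapped every other group. The means were 0.244 ± 0.0440 (SD, n = 3) and 0.208 ± 0.0159 (SD, n = 9), a difference of 0.0362 (two-sided exact permutation p = 0.0409, adjusted p = 0.205), and the difference had the opposite sign, at -0.0630 (exact permutation p = 0.0136, adjusted p = 0.0682), when peaks within 500 bp were joined.

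**Figure D3:**
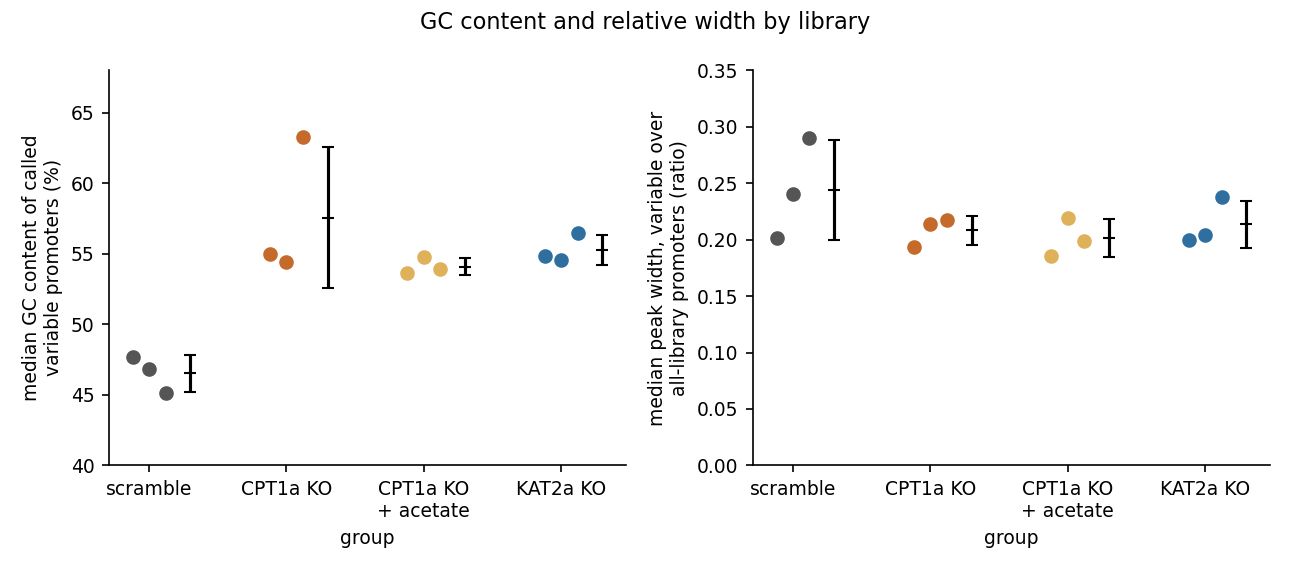
Median GC content (left, %, axis from 40) of the variable promoters that each library called, and median width of their peaks relative to peaks at promoters called in all 12 libraries (right, ratio), with 1 point for each library in replicate order and the mean ± SD beside it (n = 3). The 3 scramble libraries lie at 45.1% to 47.7% GC, below the other 9, while their width ratios of 0.202 to 0.290 overlap those of every group.

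Promoters with a call in every scramble library and nowhere else nearly all lay beside steady promoters. There were 93, which is 0.653% of all promoter regions (1.28% of all merged regions had the pattern), and by construction every promoter region with this or any later pattern here is variable, so nothing is read from such shares. Of these, 90 lay beside a steady promoter, at a median gap of 191 bp and with 71 (78.9%) within 500 bp, and 2 were sole promoters. Their median GC content was 42.3%, and 11.8% covered a start site. With peaks within 500 bp joined the count was 17, with the window around start sites reduced to 500 bp it was 41, and after thinning to equal depth 82 of the 93 had no call in any library and none kept the pattern.

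The sole promoters with this pattern were those of Synpo2l and Catsperz. At Synpo2l, which encodes an actin-binding protein of striated muscle, the fold enrichment was 4.57, 5.63 and 4.25 in scramble replicates 1 to 3, at chr14:20663784-20664162, 412 bp from the TSS. At Catsperz, a subunit of the calcium channel of sperm, it was 4.22, 3.98 and 3.35, at chr19:6923772-6924255, 614 bp from the TSS. Neither region covered its start site and neither had a call at equal depth. Some of the regions beside a steady promoter, named after their values were seen, were higher. The region beside Acsl3, an acyl-CoA synthetase that activates long-chain fatty acids, had 7.08, 9.08 and 8.87, and that beside Ttll4, a tubulin polyglutamylase, had 8.84, 4.52 and 7.79.

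The reverse pattern, a call in all 9 libraries outside scramble and in no scramble library, was rarer, and most of its promoters covered a start site. It held for 19 promoters, or 0.133% of all promoter regions (0.0726% of all merged regions), with a median GC content of 67.2%, and 84.2% of them covered a TSS. Of the 19, 14 were sole promoters. At equal depth on the same regions, 5 kept the pattern and all 19 kept at least 1 call. When promoters were chosen anew from the thinned lists, the pattern held for 204, and without CPT1a KO replicate 3 it held for 49. Scramble also had lower fold enrichments at the promoters of all 12 libraries, and the part of this in these counts was not tested.

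Among the sole promoters of this pattern with a spliced gene, the highest mean values were at Inhbb, Camk2n1 and Camk4. Inhbb encodes the beta B subunit of activin and inhibin, ligands of the TGF-beta superfamily. Its fold enrichment was 9.36, 9.41 and 6.86 in CPT1a KO, 7.76, 8.00 and 9.11 with acetate, and 9.47, 10.1 and 11.4 in KAT2a KO, over the TSS at chr1:119421136-119422781 with a GC content of 71.6%. Camk2n1, an inhibitor of the calcium/calmodulin-dependent kinase CaMKII, had 13.4, 10.3 and 8.58, then 8.34, 7.80 and 10.2, then 5.71, 9.19 and 7.03 in the same order of groups and replicates. Camk4, a calcium/calmodulin-dependent kinase, had 8.80, 11.95 and 6.30, then 11.8, 11.4 and 6.19, then 5.98, 7.91 and 5.20. At Inhbb the KAT2a KO values lay just above those of the other groups, while at Camk2n1 and Camk4 the 3 groups overlapped. At equal depth Inhbb kept its 9 calls, Camk2n1 kept 8 and Camk4 kept 7.

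Celsr2, an atypical cadherin of planar cell polarity, had 4.76 to 10.2 in the 9 libraries, Il17rd, a receptor that dampens fibroblast growth factor signalling, 4.61 to 8.605, and Ovol2, a zinc finger factor that maintains epithelial identity, 4.20 to 10.4. The single-exon genes Eif3j2 (6.63 to 12.7) and Tpm3-rs7 (7.27 to 11.4) shared the pattern. Genes of a single exon are often copies of spliced genes, with which they can share reads, so their values are uncertain. A single-exon gene was attached to 8.58% of the sole promoters, against 2.40% of genes with a promoter called in all 12 libraries and 5.91% of all protein-coding genes.

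A second set of promoters went with the knockout line. In 22 promoters (0.154% of all promoter regions), no library of the CPT1a KO line, with or without acetate, made a call, while 5 or 6 of the 6 scramble and KAT2a KO libraries did. This grouping and its genes other than those of the highest mean values were chosen after the values were seen. Arrdc4, an alpha-arrestin of the family that restrains glucose uptake, led the sole promoters with a mean fold enrichment of 13.7: it had 4.32 and 7.66 in scramble replicates 1 and 2, no call in replicate 3, and 19.95, 17.9 and 18.6 in KAT2a KO. Rasef, a Rab-type GTPase, had 9.84, 9.40 and 6.76 in scramble and 15.3, 13.8 and 14.5 in KAT2a KO. Both were higher in each KAT2a KO library than in any scramble library, but fold enrichments were not scaled between lists. At promoters called in all 12 libraries the median was 10.7 to 13.9 in scramble and 20.4 to 26.0 in KAT2a KO. A higher value in KAT2a KO than in scramble, here or at the genes below, is therefore not by itself particular to a promoter.

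Other sole promoters had the same pattern, with no call in the CPT1a KO line. Il24, a cytokine of the interleukin-10 family, had 6.01, 5.13 and 4.96 in scramble and 10.97, 10.96 and 7.46 in KAT2a KO. Itgb6, the beta subunit of an epithelial integrin that activates latent TGF-beta, had 6.36, 4.79 and 5.02, then 7.66, 9.25 and 6.21. Serpine2, an inhibitor of serine proteases, had 5.02 and 3.99 in scramble replicates 1 and 2 and 5.34, 8.09 and 9.73 in KAT2a KO. Lcp1, an actin-bundling protein, Esyt3, a tether of the endoplasmic reticulum, and the zinc finger gene Zfp518b had 3.98 to 9.42 in their 5 or 6 calling libraries. The single-exon gene AC117239.2 had 5.61 to 9.31 in 6 libraries and is uncertain in the same way as the copies above. At equal depth 3 of the 22 kept the pattern and 3 had no call left. Of the sole promoters named here Rasef, Arrdc4 and AC117239.2 kept a call in scramble while Il24, Itgb6, Serpine2, Lcp1, Esyt3 and Zfp518b did not.

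The mirror image, a call in 5 or 6 of the 6 libraries of the CPT1a KO line and in none of the scramble and KAT2a KO libraries, held for 4 promoters (0.0281% of all promoter regions). Pik3r5, a regulatory subunit of phosphoinositide 3-kinase gamma, had 4.69, 9.38 and 5.60 in CPT1a KO and 5.62, 5.41 and 6.79 with acetate. Dapk1, the death-associated protein kinase, had 5.88 and 10.1 in CPT1a KO replicates 1 and 2 and 9.10, 4.89 and 5.76 with acetate. Cela1, an elastase, had 6.82 and 6.46, then 5.49, 5.05 and 7.44, and Smim1, a small membrane protein, 4.45 and 5.997, then 3.86, 5.20 and 4.48. The call missing from 3 of the 4 was that of the shallow replicate 3.

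KAT2a KO had promoters to itself as well, fewer in all than scramble but more of them sole. In 37 promoters (0.260% of all promoter regions), 24 of them sole against 2 of the 93 of scramble, all 3 KAT2a KO libraries and no other made a call. Rapgef5, an exchange factor for Rap GTPases, had 11.5, 9.22 and 7.26, Itgb8, an integrin beta subunit, 5.91, 10.2 and 7.33, and Tmem51, a membrane protein, 7.92, 9.02 and 5.81. Hif3a, a subunit of the hypoxia-inducible factors, had 6.18, 8.14 and 6.72, L1cam, a cell adhesion molecule on chromosome X, 6.73, 5.27 and 7.72, and Rab25, a GTPase of epithelial membrane recycling, 4.56, 5.78 and 5.70, and these were named after their values were seen. At equal depth 4 of the 37 kept the pattern and 15 had no call in any library. Against scramble alone, 190 promoters (1.33% of promoter regions) were called in 3 of 3 KAT2a KO and no scramble library, and 124 (0.87%) showed the reverse, at median GC contents of 63.0% and 42.9%.

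Cwh43, a homologue of a yeast protein that remodels the lipid anchors of surface proteins, showed the same order without being absent elsewhere. It had 17.7, 15.5 and 14.4 in KAT2a KO, 5.24 and 4.84 in CPT1a KO replicates 1 and 2, 5.86 and 6.37 in replicates 1 and 3 with acetate, and 4.98 in scramble replicate 1. No call was made in the other 4 libraries.

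Few promoters separated CPT1a KO from KAT2a KO in the direction of CPT1a KO. Any count of 3 of 3 CPT1a KO libraries needs the call of the shallow replicate 3, which called 60 variable promoters. Only 56 were called in all 3 CPT1a KO libraries, so the counts below are capped on that side. A call in 3 of 3 KAT2a KO and no CPT1a KO library was made at 80 promoters (0.561%), and the reverse at 2 (0.014%). Against scramble, 35 promoters (0.246%) were called in 3 of 3 CPT1a KO and no scramble library, and 151 (1.06%) showed the reverse, of which 140 lay beside a steady promoter. For acetate against scramble the counts were 68 (0.477%) and 144 (1.01%). The comparisons share the 3 scramble libraries, and their counts are not independent.

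Acetate separated few promoters from CPT1a KO without it. A call in 3 of 3 libraries with acetate and in no CPT1a KO library was made at 6 promoters (0.0421% of promoter regions). Of these, 5 lay beside a steady promoter, and the reverse was seen at 1 (0.00702%). The sole promoter among the 6 was that of Piwil4, a PIWI protein of the germ line, with 5.07, 4.55 and 4.31 with acetate. KAT2a KO libraries had 2.73, 7.66 and 5.20 there, and scramble replicate 1 had 3.93. The reverse was the predicted gene Gm2237, with 6.09, 7.90 and 4.58 in CPT1a KO and 6.19, 9.40 and 6.36 in KAT2a KO, and with 3.34 and 2.87 in scramble replicates 1 and 2. Since CPT1a KO replicate 3 called 60 variable promoters in all, a count that asks for its call is bounded by that number.

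**Figure D4:**
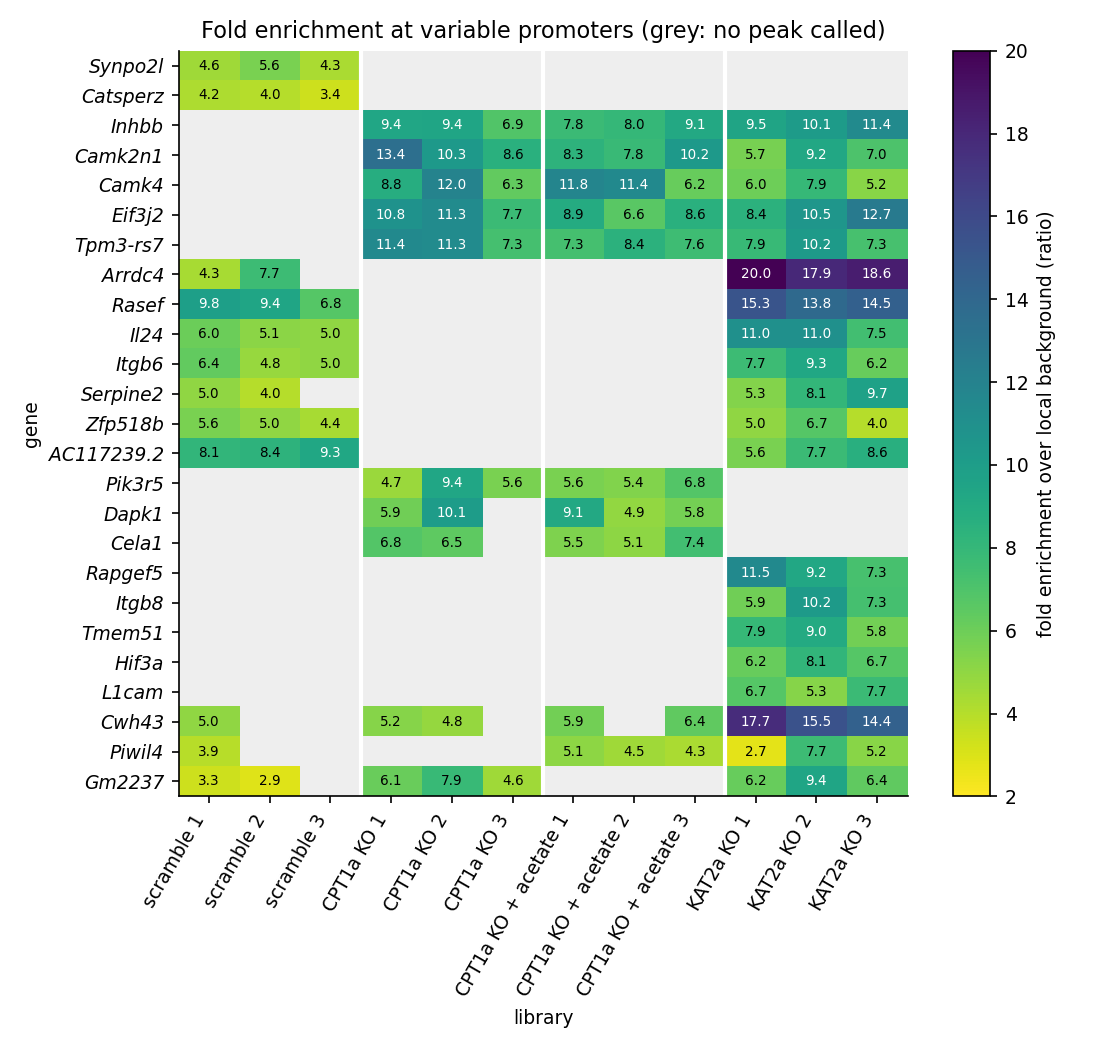
Deposited fold enrichment (colour and printed value, ratio) at 25 sole variable promoters (rows) in the 12 libraries (columns), with grey where no peak was called. The top rows are called in scramble only, the next 5 in all libraries outside scramble, the 7 from Arrdc4 to AC117239.2 in scramble and KAT2a KO, the 3 from Pik3r5 to Cela1 in the CPT1a KO line, and the 5 from Rapgef5 to L1cam in KAT2a KO, where Arrdc4 reaches 19.95.

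The genes with a variable promoter as their best region were compared across 26 lists of gene families and pathways, chosen with earlier results of these data known. Over all 21728 genes the share was 2.43%. No gene had one among 80 cytosolic ribosomal proteins, 78 mitochondrial ribosomal proteins, 84 oxidative phosphorylation subunits, 39 proteasome subunits, 40 cell cycle and replication genes or 29 histone acetyltransferases and deacetylases, of which 90.5% to 100.0% had a promoter called in 10 or more libraries. No keratin or claudin gene had one either, but 81.4% of those 86 genes had no region at all. The shares were 13.04% (3 of 23) for epithelial-mesenchymal transition, 10.0% (4 of 40) for interferon response and antigen presentation, 7.69% (7 of 91) for orphan and adhesion G protein-coupled receptors, 7.41% (6 of 81) for collagens, laminins and integrins, and 5.13% (8 of 156) for chemokines, interleukins and their receptors.

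In the epithelial-mesenchymal transition list, the variable genes were Ovol2, Zeb1 and Klf8. Zeb1, a repressor of E-cadherin, had 3.65, 3.37 and 7.59 in scramble, 3.68 in CPT1a KO replicate 2, 5.49 and 4.82 in replicates 1 and 2 with acetate, and 6.65, 6.33 and 5.01 in KAT2a KO. Klf8, a Krüppel-like factor, was called in 8 libraries at 3.01 to 6.36, of which 1 was a scramble library. Ovol2 was thus called in no scramble library, and Zeb1 in all 3 of them.

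In the interferon and antigen presentation list, the variable genes were Ciita, Oas3, Ifit3b and Cd74. Ciita, the regulator of MHC class II genes, had 4.23 and 5.19 in CPT1a KO replicates 1 and 2, 4.91 in replicate 3 with acetate, and 8.08, 6.40 and 5.97 in KAT2a KO. Cd74, the class II invariant chain, had 4.53 and 5.15 in the same CPT1a KO libraries and 4.61 and 4.03 in replicates 1 and 3 with acetate. No scramble library called either promoter. Oas3, an interferon-induced oligoadenylate synthetase, had 4.11 to 7.84 in 8 libraries and Ifit3b, another interferon-induced gene, 3.58 to 5.94 in 8 libraries, scramble included.

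Among chemokines, interleukins and receptors, Cxcr3, a receptor for interferon-induced chemokines, had 8.84, 7.31 and 7.93 in scramble, 4.23 and 4.30 in CPT1a KO replicates 1 and 2, 5.16 in replicate 3 with acetate, and 8.23, 7.91 and 9.97 in KAT2a KO. Il17re, an interleukin-17 receptor subunit, had 3.49, 4.22 and 3.69 in scramble, 5.19 in CPT1a KO replicate 2, and 7.41, 8.90 and 10.6 in KAT2a KO. Il24, Cxcr3 and Il17re each had their highest value in a KAT2a KO library, though at Cxcr3 the scramble and KAT2a KO values overlapped. Il17rb and Il22ra1 were also highest there, while Il17rd and Cxcl3 were highest in CPT1a KO replicate 2 and Il11 in replicate 1 with acetate. Promoters called in all 12 libraries had higher medians in KAT2a KO than in scramble too, so this order is not particular to these genes. In the list of collagens, laminins and integrins, beside the integrins named above, Col27a1 and Col12a1, which encode fibrillar and fibril-associated collagens, were called in 7 and 6 libraries, none of them scramble, at 4.37 to 7.60 and 4.47 to 7.03.

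Of 54 Wnt pathway genes 3 (5.56%) were variable: Fzd9, a Frizzled receptor, had 4.22 to 6.91 in 8 libraries and none in scramble, Lef1, a transcription factor of the pathway, 4.08 to 6.96 in 8 libraries, and the ligand Wnt10b 4.17 to 6.02 in 4. In the TGF-beta and BMP list (2 of 62, 3.23%), the antagonist Chrd had 4.38 to 7.34 in 8 libraries, beside Inhbb. In the Notch list (1 of 25), the receptor Notch3 had 10.1, 9.47 and 10.3 in KAT2a KO, 5.65 and 5.37 in CPT1a KO replicates 1 and 2, and 3.49 in scramble replicate 1. Of the developmental transcription factors (4 of 210, 1.90%), Hoxa13, Sox13, Tbx2 and Sox8 were each called in no scramble library, as were 244 of all 529 genes with a variable best region.

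Genes named in the study's question were examined next. The promoters of Cpt1a, Kat2a and Rela, which encodes p65, were called in all 12 libraries, and a promoter peak does not check the knockouts, since a guide alters the coding sequence. Of 37 genes of fatty acid beta-oxidation and activation, 31 (83.8%) had a promoter called in 10 or more libraries, and 2 (5.41%) had a variable one. Decr1, a mitochondrial reductase needed to oxidise unsaturated fatty acids, had 7.003 and 7.43 in CPT1a KO replicates 1 and 2, 6.52, 6.02 and 8.81 with acetate and 5.27 in KAT2a KO replicate 2, with no call in scramble. Cpt1c, the neuronal relative of Cpt1a, had 3.40 and 3.96 in scramble replicates 1 and 2, 4.97 and 6.49 in CPT1a KO replicates 1 and 2, 5.86 and 3.91 in replicates 1 and 3 with acetate and 3.84 in KAT2a KO replicate 2.

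Of 40 NF-kB subunits, inhibitors and targets, 29 (72.5%) had a promoter called in 10 or more libraries, 2 (5.00%) had a variable one, and 8 had no region. Mmp9, a matrix metalloproteinase, had 3.96 and 5.09 in CPT1a KO replicates 1 and 2 and 5.75 and 5.24 in replicates 1 and 3 with acetate, and no call in scramble or KAT2a KO. Nos2, the inducible nitric oxide synthase, had 4.34 in scramble replicate 1, 4.44 and 5.04 in replicates 1 and 3 with acetate, and 4.02 and 6.92 in KAT2a KO replicates 1 and 2. Both lay under a fold enrichment of 7 in every library that called them.

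Among 371 solute carriers, 16 (4.31%) were variable, led by the amino acid carrier gene Slc36a4 (3.68 to 11.02 in 5 libraries), Slc22a18 (3.85 to 8.36 in 9) and Slc40a1, the iron exporter ferroportin (4.32 to 9.49 in 8). Among ion channels (6 of 176, 3.41%), Trpv2, a cation channel, had 7.71, 8.35 and 4.59 in KAT2a KO, 5.77 in CPT1a KO replicate 2 and no other call. Among cadherins and protocadherins (4 of 100), Celsr2 was followed by 3 clustered protocadherins, and 10 of 466 zinc finger genes (2.15%) were variable, among them Zfp2 with 4.07 to 12.2 in 6 libraries. Among the orphan and adhesion receptors, Gpr160 had 9.73, 7.03 and 7.64 in KAT2a KO and 2.72 to 4.78 in 3 other libraries, none of them scramble. In the list of neuronal adhesion and axon guidance (4 of 104, 3.85%), Sema4g, a semaphorin, had 5.76 to 8.80 in 8 libraries and no call in scramble. Of 30 genes of mammary luminal and basal identity 1 was variable, Mylk, the myosin light chain kinase, with 1 call in each group at 4.96 to 6.81. Of 1477 olfactory and vomeronasal receptors 1 was variable, Olfr212, with 5.03 to 10.5 in 9 libraries.

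**Figure D5:**
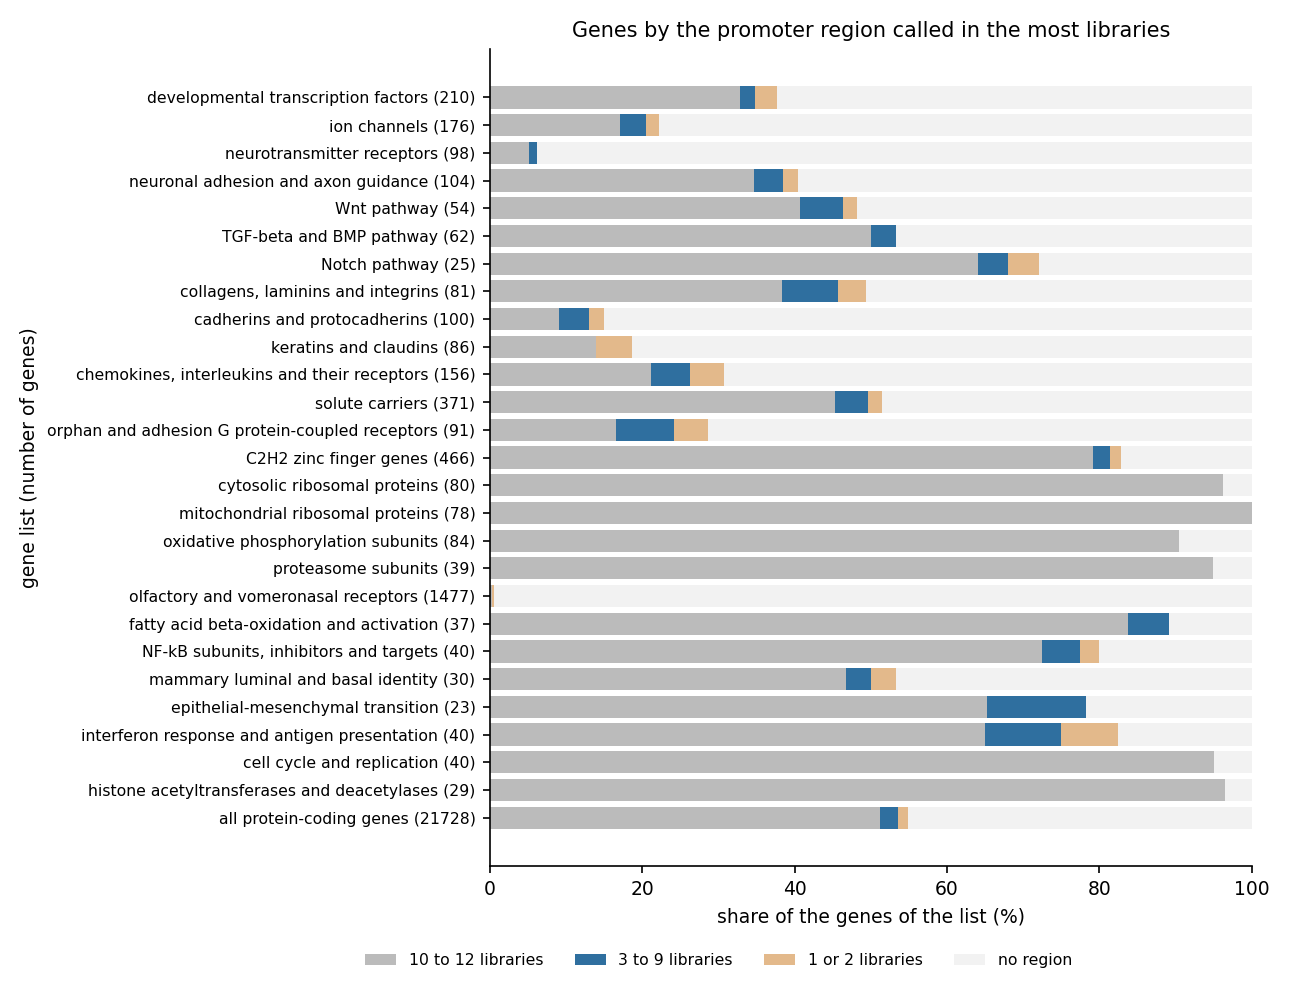
Share of the genes of each list (%, number of genes in brackets) whose best promoter region was called in 10 to 12, 3 to 9, 1 or 2, or none of the 12 libraries, with all protein-coding genes in the bottom bar. Variable promoters (blue) make up 2.43% of all genes and 13.04% of the epithelial-mesenchymal transition list (3 of 23), and none of the ribosomal protein, oxidative phosphorylation and proteasome lists.

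Core promoter letters were compared in RefSeq promoter sequences (build GRCm38), which run from 250 bases before to 50 after a gene's start. Only 375 of the 529 genes with a variable best region matched by symbol, with 497 windows, which is under 80%, so the comparison is void as a check and the shares are given as incomplete, with no test. The TATA box TATAAA on the strand of the gene was found in 6.84% of the variable windows, 3.89% of those of genes with a promoter called in 10 or more libraries, 13.6% of those of genes with no region and 7.93% of all windows. On either strand, the GC box GGGCGG was found in 49.1%, 64.8%, 24.8% and 48.0%, and the ETS site CCGGAAGT in 1.61%, 8.88%, 0.888% and 5.37%, in the same order. The CCAAT box, as CCAAT on either strand, stood in 31.4%, 38.3%, 37.9% and 37.9%. An NF-kB motif stood in 0.402%, 0.446%, 0.419% and 0.444%, and an NRF1 motif in 0.402%, 2.23%, 0.296% and 1.39%. No order is read from these shares, and the NF-kB share of the variable windows rests on 2 of the 497.

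The labelled cell type was checked at marker promoters. Those of the mammary epithelial markers Epcam, Krt8, Krt18, Krt19, Cdh1, Cd24a and Cldn4 were called in all 12 libraries. Of the markers of other cells, Ptprc, Pecam1, Cdh5 and Alb were called in none, and the regions of Cd68 and Sftpc were called in all 12 but also lie within 1 kb of start sites of Mpdu1 and Bmp1, respectively. None of these marker promoters was variable.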

How the data were processed

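H3K9ac was profiled by ChIPmentation in 12 libraries, and 12 input libraries of the series were not analysed here. The deposited files are peak lists called by the authors in each library separately, without pooling, and each gives the fold enrichment at the summit (a ratio to local background) and the −log10 of a p-value and of a q-value. The submitters' processing notes name Bowtie2, FastQC, MACS2, SAMtools and deepTools and the builds mm10 and dm6, while the methods name BWA and Picard. Caller settings and the use of input are not given in the sources used here, and the smallest deposited −log10 q was 2.00. A library without a peak has no value, fold enrichments were not scaled between libraries by the authors, and the Drosophila spike-in was not used here. Whether a weak peak passes the caller's limit depends on the depth of its library.

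Peaks on chromosomes 1 to 19 and X were merged at 1 bp or more, and regions within 1 kb of a start site of a protein-coding gene (GENCODE vM21, GRCm38) that were called in 3 to 9 libraries were kept. Calling depth was recovered by solving the caller's Poisson p-value and fold enrichment for pileup and background. Of 211192 peaks 99.9% had a solution, and 99.9% of pileups lay within 0.05 of a whole multiple of the value of 1 fragment. For equal depth, both were scaled to 0.55 and peaks that kept a −log10 p of 5 were counted. Group means were compared by exact two-sided permutation over libraries, adjusted over 5 comparisons for each measure. A result counted as called at an adjusted p under 0.05. The procedure was tested on simulated data. The highest mean fold enrichments among sole promoters of each pattern, and up to 4 members of a gene list, are named, and any other gene was named after its values were seen. The variable promoters and the gene lists were chosen with earlier results of these data known. Python 3.11.15, numpy 2.4.6, pandas 2.3.3, scipy 1.17.1 and matplotlib 3.10.9 were used. Some genes and sequences are not reported here.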

Additional observations from a re-analysis of the deposited data

Results flagged for a closer look

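CPT1a KO replicate 3 stood apart from the other libraries outside scramble in the GC content of the variable promoters it called. The median was 63.3% over all of them, against 53.6% to 56.5% in the other 8 libraries, 64.4% over sole promoters and 60.5% over regions beside a steady promoter. Its gap to the nearest library, divided by the range of the 9, was 0.702, 0.620 and 0.925, above Dixon's 95% critical value for 9 samples. It was also the shallowest library, at a calling depth of 0.554, and called 60 variable promoters. At equal depth, with promoters chosen anew, the CPT1a KO mean was 57.5% ± 0.899 (SD, n = 3). The 9 libraries outside scramble then had 57.2% ± 0.673 (SD), so none was near 63.3%. The part of depth in its GC content as deposited was not tested. Of 9 measures checked in these libraries, chance flags about 1 in 20. Without it, scramble differed from the rest by -8.30 percentage points (exact permutation p = 0.00606, adjusted p = 0.0303).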

How the results depend on the processing

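The GC content of called variable promoters stayed lower in scramble than in the other 9 libraries under every alternative run, between -9.60 and -4.26 percentage points, but the adjusted p missed 0.05 in several. When peaks had to cover 50% of a region the difference was -4.26 (exact permutation p = 0.0773, adjusted p = 0.1). Leaving out each library in turn gave -8.57 to -5.40. Without any 1 of the scramble libraries the adjusted p was 0.0909 to 0.1, and with 2 libraries against 9 it cannot fall below 0.0909. Replicate numbers did not pair the libraries, since deviations of libraries of the same number correlated at -0.0569 to 0.0697 over 18 pairs and those of different number at -0.0922 to 0.0949 over 36. With the replicate number as a block the difference was -9.12 (exact permutation p = 0.0156, adjusted p = 0.0781), the smallest p that design allows, and no other call changed under the block. The leave-one-out range was 6.98 to 10.8 points for CPT1a KO, 5.23 to 8.82 for KAT2a KO and 3.99 to 7.85 for acetate, each against scramble, and -4.40 to -0.373 for acetate against CPT1a KO.

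The number of variable promoters was 707 for 4 to 8 libraries, 3664 when peaks had to cover 50% of a region, and 1170 to 1339 without single libraries. The 93 promoters called only in scramble became 41 within 500 bp of start sites, 1 at equal depth with regions chosen anew, 60 at a −log10 q of 5 or more, 17 with peaks within 500 bp joined and 60 with protein-coding transcripts alone. Without single libraries they numbered 0 to 103, and 0 without any scramble library by construction, since 2 calls are below the minimum of 3. The 19 called in all libraries outside scramble became 204 at equal depth, 12 at a cover of 50%, and 19 to 49 without single libraries, with 49 without CPT1a KO replicate 3, 42 without scramble replicate 1 and 32 without scramble replicate 2.

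No difference in relative width was called in any setting, and some turned in direction. With peaks joined, the difference was 0.0612 for CPT1a KO, 0.0320 for acetate and 0.0959 for KAT2a KO against scramble, and -0.0630 for scramble against the other 9. It was 0.00120 for CPT1a KO against scramble at a −log10 q of 5 or more, 0.0184 for KAT2a KO against scramble at equal depth, and 0.0786 for acetate against CPT1a KO at a cover of 50%. The causes were not tested. Without single libraries the ranges were -0.0324 to -0.00967, -0.0456 to -0.0274 and -0.0320 to -0.00939 for CPT1a KO, acetate and KAT2a KO against scramble, -0.0302 to -0.00317 for acetate against CPT1a KO, and 0.0176 to 0.0319 for scramble against the other 9. Of all alternative values, 228 kept their direction and their side of the threshold, or stayed within 1.5 times of a count.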

Other observations

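Variable calls were more frequent away from promoters than at them. Of all 38586 merged regions 6385 (16.5%) were called in 3 to 9 libraries, against 8.24% of the promoter regions. Over all regions, 494 (1.28%) had a call in every scramble library and nowhere else, and 28 (0.0726%) showed the reverse. Chromosome X held 34 of the variable promoters (2.90%) and 2.84% of the promoters called in all 12 libraries.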
